A study of Mus musculus with 105 samples.

Results

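The replication-dependent histone genes were followed through differentiation of female mouse embryonic stem cells (mESCs), in bulk RNA and in single cells. Members were the genes whose symbol begins with Hist1h, Hist2h, Hist3h or Hist4h. The bulk tables list most of these genes under newer symbols, so that the prefix alone found 9 of their 52108 genes. RefSeq synonyms linked 61 further genes, which gave 70 members (6 H1, 20 H2A, 19 H2B, 12 H3 and 13 H4). The UMI table of the single cells lists 66 of the 70 under the older symbols, among 34120 genes, and both symbols are given here where a gene is first described.

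TX1072 (clone A3) is an mESC line from a cross of the strains B6 and Cast, whose B6 copy of Xist can be switched on by doxycycline through the activator rtTA, expressed from Rosa26. TXdXicB6 and TXdXicCast were made from it by deleting a region around Xist on the B6 or the Cast chromosome, and each of them is 1 clone. The parental alleles and the rtTA transgene are thus shared by all samples. Cells were kept in serum with 2i and Lif (day 0) and collected 1, 2, 3 and 4 days after 2i/Lif withdrawal on fibronectin. Each line and day had 3 bulk libraries, 45 in all, made from RNA depleted of ribosomal RNA without selection for poly(A). Bulk replicate 1 of TX1072 came from the cell population used for the single cells. The single-cell libraries counted 3′ ends after priming on poly(A), on 400 sites of a chip each day. There was a single culture per day, and day 1 was sequenced in 2 runs that the table holds together.

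Canonical histone proteins package newly replicated DNA, and their genes lie in clusters that are transcribed mainly in S phase. Their mRNAs normally carry no poly(A) tail. They end shortly after a stem-loop that is bound by the protein Slbp, and this end is cut with the help of the U7 small nuclear RNA. Some of these genes can also be read through to a downstream poly(A) signal, which gives a polyadenylated transcript. Histones H2A, H2B, H3 and H4 form the nucleosome core, whereas the linker histone H1 binds the DNA that enters and leaves it.

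On GRCm38, 56 members lie on chromosome 13, 10 on chromosome 3, 3 on chromosome 11 and 1 on chromosome 6. The annotation (GENCODE) lists 67 as protein-coding and 3 as pseudogenes. The exact stem-loop with the stem strands GGCTCT and AGAGCC around the loop TTTN, searched on the sense strand of the gene models, was found in 33 members. A form with the strands GGCCCT and AGGGCC was found in 9 members. The 2 forms were thus in 42 of 70 members, and in 45 (0.205%) of all 21901 protein-coding genes. A missing match says only that these letters are not within the annotated model, and sequence outside the models was not searched. The following sites illustrate members whose model ends close to the loop (H2ac4 and H3c2) and members whose model runs on beyond it, with the stem-loop in capitals and the flanking bases of the exon in lower case.
H2ac4 (Hist1h2ab, chr13:23751567-23751592, plus strand): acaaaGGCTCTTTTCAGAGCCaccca
H3c2 (Hist1h3b, chr13:23752815-23752840, plus strand): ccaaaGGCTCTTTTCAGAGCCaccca
H2ac6 (Hist1h2ac, chr13:23683472-23683497, minus strand): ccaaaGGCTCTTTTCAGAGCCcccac
H1f4 (Hist1h1e, chr13:23621777-23621802, minus strand): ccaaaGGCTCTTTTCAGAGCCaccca
H1f2 (Hist1h1c, chr13:23739507-23739532, plus strand): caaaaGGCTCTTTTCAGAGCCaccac
H4c4 (Hist1h4d, chr13:23581945-23581970, plus strand): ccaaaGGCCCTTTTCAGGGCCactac
H2bu2 (Hist3h2ba, chr11:58949344-58949369, plus strand): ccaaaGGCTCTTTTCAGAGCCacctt
Between these genes the stem and the loop are the same, except for the second form of the stem in H4c4. The model ends 11 bases after the loop in H2ac4 and 51 bases after it in H3c2, but 2010 bases after it in H2ac6, 1153 in H1f4, 840 in H1f2, 770 in H4c4 and 169 in H2bu2. In all, models of 21 members run over 100 bases past the loop, and those of 12 members over 500 bases.

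RefSeq promoters (250 bases before to 50 bases after the start) matched 61 members. TATAAA, on either strand, was found in 57.4% of them and in 15.7% of all 27025 promoters of the table. CCAAT, on either strand, was found in 85.2% of the members and in 41.1% of all promoters. It occurred in all matched H1, H2A, H2B and H3 promoters, but in only 3 of the 12 matched H4 promoters. Histone copies are similar to each other, and in 32 members over 50% of the windows of 50 bases recur in another member. As only uniquely aligned reads were counted, the values of such copies are uncertain. Exons of 7 members overlap another gene on the same strand (H1f4, H2bc6, H2ac6, H2bc18, H2aw, H2ac18 and H3c14), so that their counts may not be theirs alone. Exons of 23 members overlap a gene on the other strand, and for the bulk tables the sources used here do not state whether strand was used in counting.

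The 45 libraries held between 16906263 and 57920260 counts, of which between 139421 and 919162 fell on members. Because the number of counts on members was high, the spread between replicates, and not depth, limited the comparison of their sum. In TX1072 the members took 0.933%, 1.04% and 1.10% of the counts in the 3 day 0 libraries. At day 1 they took 0.519%, 0.916% and 0.543%, where replicate 2 stood apart. At day 4 the libraries lay at 0.757%, 0.760% and 0.710%. Over the 3 libraries of a day, the share had means of 1.03% ± 0.087 (SD, n = 3), 0.659% ± 0.223, 0.581% ± 0.102, 0.655% ± 0.042 and 0.742% ± 0.028 from day 0 to day 4. No library of days 1 to 4 reached the lowest library of day 0, and the exact permutation test gave p = 0.1 (two-sided) for each day, which is the smallest p that 3 against 3 libraries allow. In bulk RNA, fewer cells that transcribe a gene and less RNA per cell cannot be told apart.

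**Figure D1:**
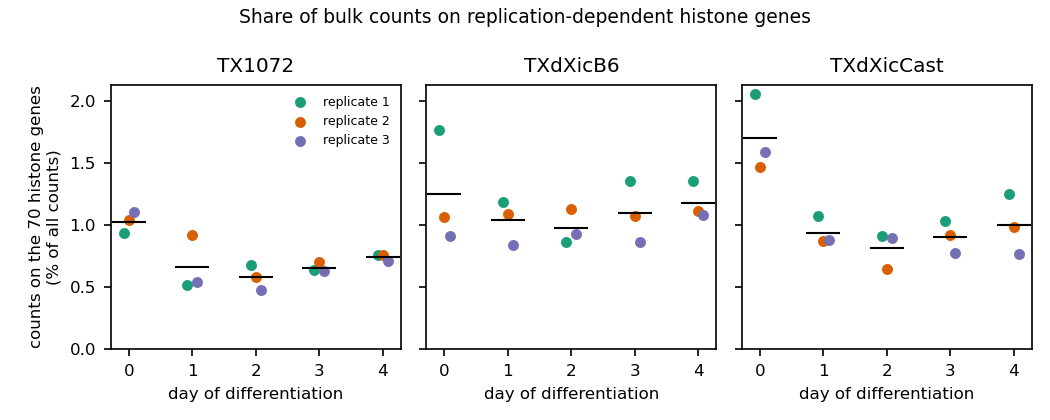
Percent of all bulk counts that fell on the 70 members (y axis) by day of differentiation (x axis), for TX1072, TXdXicB6 and TXdXicCast. Each point is 1 library, coloured by replicate, and the bar is the mean of 3; TX1072 fell from a mean of 1.03% at day 0 to 0.581% at day 2 and stood at 0.742% at day 4.

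To compare single genes, edgeR's quasi-likelihood test was run across all genes that passed a filter on low counts (18871 genes in TX1072), with p-values adjusted over all of them by Benjamini-Hochberg and called below 0.05. Of the 70 members, 64 passed the filter. At day 1, 42 members were lower than at day 0 and 2 were higher, while 23.4% of all genes were called lower and 23.5% higher. At day 2 there were 46 lower and 1 higher members (27.2% and 28.8% of all genes), and at day 3 there were 47 lower and 2 higher (27.9% and 28.1%). Day 4 had 36 lower and 3 higher members (29.4% and 30.2%). The median log2 fold change of the 64 members was -0.72, -0.82, -0.73 and -0.55 at days 1 to 4, beside -0.01, -0.00, -0.02 and -0.03 over all genes. The median of the members was thus already low at day 1. Of the members tested, 24, 43, 44 and 34 were lower in all replicates of days 1 to 4 than in any replicate of day 0, compared to 25%, 28.4%, 29.5% and 30.4% of all genes. These values moved with the replicates. Without replicate 3 of every day, 19, 27, 33 and 24 members were called at days 1 to 4, while 33.7%, 43.8%, 44.7% and 49.7% of all genes were called in either direction, and the median over the members was -0.39, -0.52, -0.60 and -0.40. Without replicate 2 of every day the median at day 1 was -1.08. Mitochondrial genes took 7.90% of the counts in replicate 3 of day 0, against 2.47% and 1.92% in the other replicates of that day, and 8.57% in replicate 2 of day 3, and their part in the result was not tested. Without day 1 replicate 2 alone, a comparison added after seeing the data, 51 were called at day 1, all of them lower. The share of all genes is not given for that fit. Without replicate 2 of every day 51 members were called at day 1 as well, beside 43.7% of all genes in either direction.

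**Figure D2:**
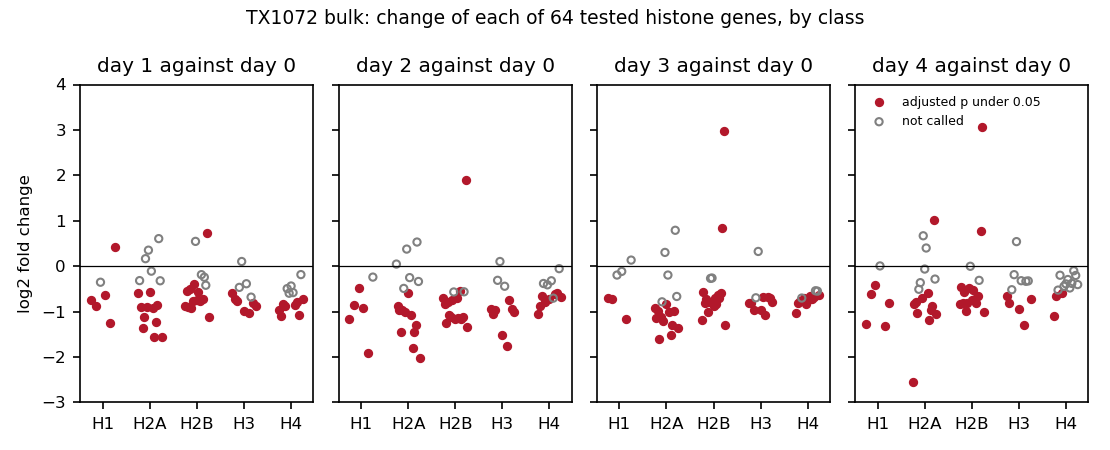
Log2 fold change against day 0 (y axis) of each of the 64 tested members in TX1072 bulk RNA, by histone class (x axis) and day (panels). Filled points passed the adjusted p of 0.05 and open points did not; the medians over members lie at -0.72, -0.82, -0.73 and -0.55, and the highest point at days 2 to 4 is H2bu2.

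Among the linker histones, H1f5 (Hist1h1b) and H1f1 (Hist1h1a) decreased at all days. H1f5 was at 802, 834 and 618 CPM (counts scaled to the library size with TMM factors) at day 0 and at 311, 285 and 304 CPM at day 4, with no overlap between the groups. Its log2 fold change at day 4 was -1.32 ± 0.147 (SE, adjusted p = 3.59e-07), after -1.91 at day 2. H1f1 went from 1033, 1073 and 820 CPM to 394, 409 and 405 CPM, with a log2 fold change of -1.28 ± 0.132 (adjusted p = 1.39e-07). H1f4, whose exons overlap those of another member (Hist1h2be) on the same strand, was lower at day 1 (-0.62, adjusted p = 0.0386) and day 2 (-0.93, adjusted p = 0.00286), and stood at 0.01 ± 0.237 at day 4 (adjusted p = 0.987). In the replicates it was at 355, 485 and 412 CPM at day 0 and at 358, 442 and 457 CPM at day 4, so the groups overlapped. H1f2 was lower by 0.62 ± 0.248 at day 4 on the log2 scale (adjusted p = 0.0390) with overlapping replicates, and H1f3 (Hist1h1d) by 0.41 ± 0.149 (adjusted p = 0.0239). H1f6 (Hist1h1t), the linker histone known from the testis, was higher at day 1 (0.43, adjusted p = 0.0438) and lower at day 4 (-0.80, adjusted p = 0.000722).

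The core histones were counted by class. At day 4, 10 of 17 tested H2A members were lower and 1 was higher, with 13 of 17 lower and 2 higher for H2B, 5 of 11 lower for H3 and 3 of 13 lower for H4. Of all genes, 29.4% were lower and 30.2% higher at that day, and the classes were not tested against each other. All 13 H4 members had a negative log2 fold change at each of days 1 to 4, and 8, 8, 10 and 3 of them were called at days 1, 2, 3 and 4. At these days 23.4%, 27.2%, 27.9% and 29.4% of all genes were called lower. The H4 member with the most counts, H4c4, was at 501, 746 and 708 CPM at day 0 and at 492, 549 and 451 CPM at day 4. These groups overlapped, and its difference of -0.39 ± 0.249 was not called (adjusted p = 0.189). H4c8 (Hist1h4h) and H4c9 (Hist1h4i) were called at day 1 (-0.86 and -0.80, adjusted p = 0.0231 and 0.0105) and not at day 4 (-0.48 and -0.38, adjusted p = 0.172 and 0.182).

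Of the abundant H3 members, H3c2 went from 219, 210 and 222 CPM at day 0 to 132, 115 and 93.2 CPM at day 4, with a log2 fold change of -0.94 ± 0.211 (adjusted p = 0.000888). H3c4 (Hist1h3d) showed the largest decrease of the class, from 200, 180 and 187 CPM to 88.9, 73.7 and 66.8 CPM (-1.30 ± 0.229, adjusted p = 7.91e-05). In both genes all libraries of day 4 were below those of day 0. H3c8 (Hist1h3g) was also lower (-0.71 ± 0.216, adjusted p = 0.00825), whereas H3c6 (Hist1h3e) stood at -0.33 ± 0.276 (adjusted p = 0.315). For H2A, H2ac4 was lower by 0.59 ± 0.171 on the log2 scale (adjusted p = 0.00643), H2ac15 (Hist1h2ak) by 0.69 ± 0.288 (adjusted p = 0.0461) and H2ac6 by 1.19 ± 0.232 (adjusted p = 0.000224). H2ac20 (Hist2h2ac) was lower at day 3 (-0.83, adjusted p = 0.00196) and had returned to -0.06 ± 0.201 at day 4 (adjusted p = 0.806). Among the abundant H2B members, the log2 fold change at day 4 was -0.48 ± 0.152 for H2bc18 (Hist2h2bb), -0.65 ± 0.214 for H2bc8 (Hist1h2bg) and -0.80 ± 0.187 for H2bc15 (Hist1h2bn), with adjusted p of 0.0108, 0.0144 and 0.00115. The largest decrease of all members was that of H2ac1 (Hist1h2aa), an H2A gene known from the testis, which went from 16.8, 15.4 and 22.4 CPM at day 0 to 3.01, 2.86 and 3.45 CPM at day 4 (-2.54 ± 0.178, adjusted p = 6.91e-10). At day 2 it was still at 19.9, 19.7 and 16.7 CPM, so that its time course was unlike that of the abundant members.

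Only 3 members were higher at day 4, all from the cluster on chromosome 11. For H2bu2, an H2B gene, the replicates of day 0 had 2.11, 2.31 and 2.34 CPM, those of day 1 had 2.91, 4.87 and 3.34 CPM, and those of day 2 had 9.97, 7.65 and 7.55 CPM. It reached 14.5, 19.6 and 19.3 CPM on day 3 and 18.5, 21.7 and 16.0 CPM on day 4. No later library was as low as those of day 0, and the fold change at day 4 was 8.34 (log2 3.06 ± 0.209, adjusted p = 5.01e-10). The neighbouring H2bu1-ps (Hist3h2bb-ps), annotated as a processed pseudogene, increased by 0.77 ± 0.249 (adjusted p = 0.0122) and H2aw (Hist3h2a) by 1.02 ± 0.391 on the log2 scale (adjusted p = 0.0311). H2aw had only 3.30, 0.87 and 1.66 CPM at day 0 and 5.36, 2.61 and 4.23 CPM at day 4, its groups overlapped, and its exons overlap those of Trim17 on the same strand.

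Between day 1 and day 4, 6 members rose and 4 fell, while 30.7% and 28.1% of all genes did so. The risers were H1f4, H2ac20, H2ac21, H2bu2, H2bu1-ps and H4f16. The counts and the median log2 fold change of 0.10 depended on which replicates were included. Without replicate 1 of every day, 3 members were higher and 5 lower, and the median turned to -0.07. Without replicate 2 there were 23 higher and 3 lower (0.45), and without replicate 3 there were 3 higher and 4 lower (0.05). Of all genes, 49.1%, 54.6% and 48.3% were called in either direction without replicates 1, 2 and 3. The share of member counts of day 1 replicate 2 was close to that of day 0. Without this library alone 30 members were higher and 4 lower (0.48), but no share of all genes is given for that fit. What sets this library apart was not tested.

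Factors that act on histone mRNA and other lists were compared over the same days. At day 4, 29.4% of all genes were lower and 30.2% higher, which is the background for each list. Of 25 tested genes of histone mRNA processing and transcription, 2 were higher and 11 lower at day 4, with a median log2 fold change of -0.20. Slbp, which binds the stem-loop, was slightly lower (-0.29, adjusted p = 0.0295), as were Cdk2, the kinase that activates histone transcription with cyclin E (-1.08, adjusted p = 5.87e-09), the endonuclease gene Cpsf3 (-0.70, adjusted p = 9.44e-05), Ncbp2 of the cap-binding complex (-0.69, adjusted p = 0.000129) and Mif4gd (-0.82, adjusted p = 6.68e-06). Npat, the coactivator of histone genes, stood at 0.13 (adjusted p = 0.338). Among 11 histone genes outside the 4 symbol prefixes, most of them replication-independent variants with polyadenylated mRNA, 2 were higher and 6 lower. Here H3f3b, which encodes H3.3, increased (0.63, adjusted p = 9.29e-05) together with Macroh2a2 (0.93, adjusted p = 3.51e-06), while H2az1 (-0.76, adjusted p = 6.85e-05), H2ax (-0.81, adjusted p = 0.000106), whose model also holds a histone stem-loop, and Macroh2a1 (-0.99, adjusted p = 2.08e-06) decreased. Of the 12 histone chaperone genes, 5 were lower and 1 higher, with Asf1b at -1.0 (adjusted p = 2.85e-06), Chaf1b at -0.56 (adjusted p = 7.49e-05), Rbbp4 at -0.52 (adjusted p = 0.000102) and Rbbp7 at 0.73 (adjusted p = 7.34e-06), whereas Nasp (-0.23, adjusted p = 0.101) and Chaf1a (-0.19, adjusted p = 0.125) were not called.

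Genes of DNA replication were compared over the same days. At day 1, 5 of 26 were higher and 3 lower, with a median log2 fold change of -0.00. This became 2 higher and 11 lower at day 2, and 0 higher and 20 lower at days 3 and 4, with medians of -0.13, -0.42 and -0.59. Of all genes, 23.4%, 27.2%, 27.9% and 29.4% were lower at days 1 to 4 and 23.5%, 28.8%, 28.1% and 30.2% higher. Pcna stood at -0.22 at day 1 (adjusted p = 0.134) and at -0.52 at day 4 (adjusted p = 0.000796), Mcm6 at -0.18 (adjusted p = 0.272) and -1.01 (adjusted p = 2.46e-06), Uhrf1 at -0.16 (adjusted p = 0.273) and -1.59 (adjusted p = 1.38e-09), Gins1 at -0.42 (adjusted p = 0.00326) and -1.06 (adjusted p = 1.14e-07) and Pola1 at -0.05 (adjusted p = 0.809) and -1.01 (adjusted p = 4.63e-06). The difference between the lists was not tested. Of 16 genes of G2 and mitosis, 3 were higher and 5 lower at day 4 (median -0.09), with Mki67 at 0.52 (adjusted p = 0.000627), Cdc20 at 0.46 (adjusted p = 0.00824), Ube2c at -0.79 (adjusted p = 0.00271) and Aurka at -0.52 (adjusted p = 0.000257).

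Markers of the cell state changed in the same libraries. All 8 markers of pluripotency were lower at day 4 (log2 fold changes of -5.66 for Klf4, -5.26 for Prdm14, -4.72 for Tfcp2l1 and -3.48 for Esrrb, with adjusted p of 5.26e-13, 5.90e-14, 5.05e-14 and 4.38e-11), and all 5 of the formative or primed state were higher (Fgf5 10.0, Pou3f1 2.09, Dnmt3b 1.56 and Otx2 1.35, with adjusted p of 6.79e-14, 1.01e-08, 8.06e-09 and 1.09e-06). All 5 markers of primitive endoderm were higher at day 4 as well, among them Dab2 (2.93, adjusted p = 1.48e-10), Pdgfra (2.06, adjusted p = 1.92e-06) and Gata4 (1.70, adjusted p = 4.13e-05). The most elevated of them, Gata6, was at 0.135, 0.189 and 0.135 CPM at day 0 and at 2.90, 0.699 and 0.600 CPM at day 4. The fibroblast genes Col1a1 and Col1a2 were at 6.55 to 9.26 and at 7.52 to 12.5 CPM at day 0, and at 3.28 to 5.05 and 1.71 to 2.52 CPM at day 4, while Dcn was at 0, 0 and 0.180 CPM at day 0 and at 3.38 to 4.65 CPM at day 4. Among trophoblast genes, Cdx2 was at 7.04 to 17.1 CPM at day 0 and 1.67 to 2.52 CPM at day 4, Eomes rose from 2.27 to 3.56 CPM to 67.2 to 121 CPM, and Elf5 did not pass the filter. The part of these cell states in the histone levels was not tested.

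The deletion lines were made with another kit, read length and sequencer, and they were therefore tested in a fit of their own over 19885 genes, of which 64 members passed the filter. In TXdXicB6 the members took 1.76%, 1.07% and 0.909% of the counts at day 0 and 1.35%, 1.11% and 1.08% at day 4. The means were 1.25% ± 0.455 (SD, n = 3) and 1.18% ± 0.148, and the groups overlapped at all days (exact permutation tests, two-sided, p = 0.6 or more). At days 1 to 4, 6, 13, 4 and 5 members were lower and 5, 4, 6 and 4 higher than at day 0. Of all genes, 21.8%, 27.2%, 28% and 29.5% were lower and 23.9%, 28.9%, 29.8% and 30% higher. Their median log2 fold change was -0.19, -0.29, -0.23 and -0.21, but this sign rested on day 0 replicate 1. Without it, in a comparison added after seeing the data, the medians were 0.17, 0.15, 0.16 and 0.17, and 1, 3, 1 and 3 members were lower. Without replicate 1 of every day, 7 members each were called at days 1 and 2, and without replicate 2, 6 were called at day 3. With the replicate number as a block, 13, 22, 12 and 12 members were lower and 8, 6, 6 and 4 higher. Without the filter on low counts, 22, 30, 21 and 21 were lower and 9, 6, 6 and 6 higher. The shares of all genes above are those of the reported fit, so the alternative counts of this paragraph have no background beside them. In TX1072 at day 1 the share called in either direction was 47% in the reported fit, 50.4% with the block and 26.2% without the filter. H1f5 (-0.85 ± 0.194, adjusted p = 0.000430), H1f1 (-0.71 ± 0.200, adjusted p = 0.00314) and H2ac1 (-1.77 ± 0.432, adjusted p = 0.000890) were lower at day 4.

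In TXdXicCast the members took 2.06%, 1.47% and 1.59% of the counts at day 0 and 1.25%, 0.983% and 0.767% at day 4. All libraries of later days lay below those of day 0 (exact permutation tests, two-sided, p = 0.1). At days 1 to 4, 23, 37, 30 and 29 members were lower and 4, 3, 4 and 4 higher, while 28.3%, 31.9%, 32.8% and 33.6% of all genes were lower and 30.6%, 34.5%, 35.8% and 36.2% higher. The median log2 fold change was -0.71, -0.88, -0.90 and -0.82 over the members and 0.06, 0.07, 0.07 and 0.06 over all genes. With the block, 40, 46, 50 and 49 members were lower, and without the filter on low counts 44, 48, 52 and 49. Day 2 had 25 calls without replicate 2. The shares of all genes above belong to the reported fit, and none is set beside these alternative counts. The RNA of day 0 of this line was degraded and was fragmented under milder conditions than all other samples of the table. In the same 3 libraries, mitochondrial genes took 0.135%, 0.320% and 0.200% of the counts, against 0.690% to 2.89% in the other deletion-line libraries. At day 0 the line, the degradation and the fragmentation cannot be told apart.

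A comparison of days 4 and 1 does not use the levels of these libraries, although they enter the spread estimated in the fit. Here 4 members were higher and 2 lower in TXdXicB6 (27.9% and 28.7% of all genes), and 4 higher and 4 lower in TXdXicCast (29.3% and 30.1%). With the block, 9 members were lower and 4 higher in TXdXicCast, and without replicate 3 of every day 5 were called. The shares of all genes just given are of the reported fit and not of these 2 settings. The same 4 members were higher in both lines, namely H1f4 (0.74 ± 0.177 and 0.52 ± 0.177, adjusted p = 0.000848 and 0.0125), H2bu2, H2bu1-ps and H4f16 (Hist4h4; 0.77 ± 0.247 and 0.71 ± 0.248, adjusted p = 0.00904 and 0.0148). H2bu2 was at 6.99, 2.8 and 4.10 CPM at day 1 and at 28.1, 20.2 and 26.2 CPM at day 4 in TXdXicB6 (2.42 ± 0.270, adjusted p = 1.45e-08). In TXdXicCast it was at 4.73, 3.95 and 4.57 CPM and at 21.3, 19.9 and 13.7 CPM (2.05 ± 0.271, adjusted p = 2.59e-07). In both lines the groups did not overlap.

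Between the lines, the change from day 0 to day 4 differed in 9 members, all of them with a lower value in TXdXicCast (7.14% of all genes had a lower and 7.85% a higher value). They were all 6 H1 genes (H1f1, H1f2, H1f3, H1f4, H1f5 and H1f6) and the H4 genes H4c2, H4c8 and H4c12. The difference was -1.35 ± 0.242 for H1f3 on the log2 scale (adjusted p = 0.000737). This gene was at 1610, 1228 and 1665 CPM in TXdXicCast and at 967, 570 and 621 CPM in TXdXicB6 at day 0, and at 730, 745 and 506 against 820, 784 and 816 CPM at day 4. With the block nested in line 28 members differed, with a block shared by both lines (added after seeing the data) 16 did, and without the filter on low counts 34. Without replicate 3 of every day 0 differed. Without day 0 replicate 1 of TXdXicB6 there were 15. The shares of 7.14% and 7.85% belong to the reported fit, so whether these alternative counts exceed their background is not shown. For the change from day 1 to day 4, 0 of 64 members differed (0.749% of all genes), with 0 members at an unadjusted p under 0.05 and 0 calls by DESeq2. On single days, 13 members were higher in TXdXicCast at day 0 (9.86% of all genes, with 9.9% lower), which were the 6 H1 genes and 7 H4 genes, while 0 differed at days 1 to 4 (0.402%, 0.372%, 1.26% and 5.86% of all genes). On these later days edgeR found 0, 1, 2 and 1 members with an unadjusted p under 0.05, and DESeq2 called 0. The median log2 difference over the members was -0.14, -0.27, -0.33 and -0.28. At days 3 and 4 the member share was lower in TXdXicCast for every replicate number (at day 3, 1.03%, 0.918% and 0.776% against 1.35%, 1.07% and 0.864%). At days 1 and 2 the direction differed between replicate numbers. With the shared block, 15 members differed at day 0 and 0 at days 1 to 4, where 0, 7, 9 and 5 had an unadjusted p under 0.05. No share of all genes is set beside the counts at an unadjusted p. As the members also share these libraries, nothing is concluded from such counts. The 0 calls of days 1 to 4 rested on the filter on low counts: without it, 10, 13, 13 and 10 members were called, all of them lower in TXdXicCast (0.546%, 0.552%, 1.59% and 3.88% of all genes in either direction), and 28 at day 0. Without replicate 3 of every day, 1 member was called at day 0, and without replicate 2, 7 were called, with no share of all genes from these fits beside them.

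Libraries of the same line and replicate number deviated together in the deletion lines. The median correlation of their deviations was 0.824 over the members and 0.356 over all genes, as a description only. According to the study, each biological replicate began differentiation on a date of its own, but the labels give only the replicate number. H3c13 (Hist2h3b) was at 209, 130 and 52.5 CPM in the 3 replicates of TXdXicB6 at day 0 and at 195, 171 and 66.2 CPM at day 4. In TXdXicCast it was at 208, 84.9 and 70.4 CPM at day 0 and at 206, 66.1 and 57.3 CPM at day 4. Replicate 3 of TXdXicB6 was thus low on both days, and replicate 1 of TXdXicCast was high. H2ac12 (Hist1h2ah) showed the same order, with 55.4, 34.7 and 13.1 CPM in TXdXicB6 and 58.5, 32.1 and 27.0 CPM in TXdXicCast at day 0. Both genes were chosen after their values were seen.

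**Figure D3:**
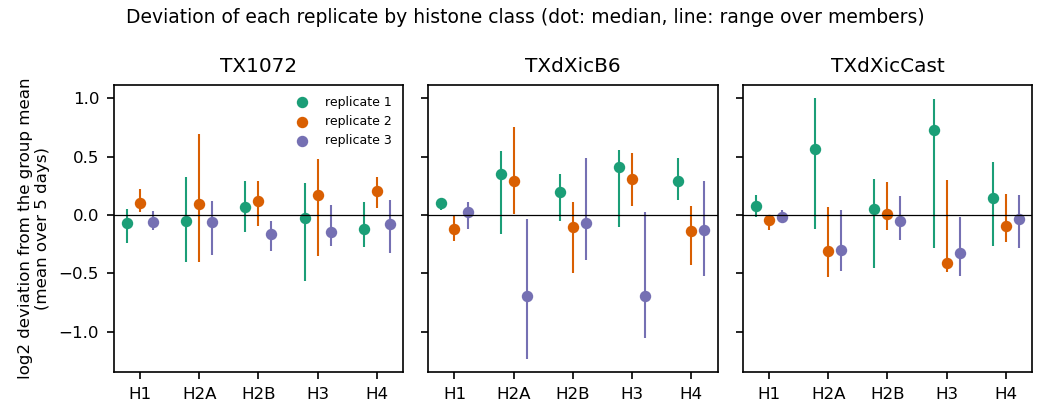
Log2 deviation of each replicate from the mean of its group, averaged over the 5 days (y axis), by histone class (x axis) and line. Points are medians over the members of a class and lines span all members of the class; replicate 3 of TXdXicB6 lies at -0.70 for H2A and H3, while the medians of H1 lie between -0.12 and 0.11 in all lines.

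Averaged over the 5 days, replicate 3 of TXdXicB6 deviated by a median of -0.70 for H2A and for H3, and by 0.03 for H1 and -0.07 for H2B on the log2 scale. Replicate 1 of TXdXicCast deviated by 0.57 for H2A and 0.73 for H3, and by 0.08 for H1. In TX1072 no class deviated by more than 0.21 at the median in any replicate in this average. An average over days hides single libraries, such as day 1 replicate 2, where H4c4 was at 758 CPM against 333 and 353 CPM. Across the 64 members, which share these libraries, the deviation had a Pearson correlation with the GC content of the gene of -0.49 for replicate 3 of TXdXicB6 and 0.44 for replicate 1 of TXdXicCast. The part of GC content, or of the date on which differentiation began, in this deviation was not tested.

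In the single cells, 1472 of 2000 capture sites were on the list of retained cells, with 277, 325, 341, 257 and 272 cells at days 0 to 4 and a median of 138565, 124651, 125591, 130377 and 171158 UMIs per cell. Each capture site had a name of its own. The members held 74284 of 200323988 UMIs, which is 0.0371%. In bulk TX1072 libraries of the same line the share was between 0.478% and 1.10%. Before the values of single genes are given, it has to be said that capture column 2 stood apart from the other 9 columns of the chip layout. Over 10595 genes, the SD of the log2 offset of a column, averaged over days, was 0.454 in column 2 and between 0.269 and 0.307 in the others. It was the highest for the members at days 0, 1 and 4 and the lowest at day 2.

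To compare both kinds of library, the UMI level of a gene (CPM over all retained cells of a day) was divided by the bulk level of TX1072 replicate 1 per kb of exon, with 0.1 added to both. At day 0 the log2 ratio had a median of 2.04 over other genes with at least 5 CPM in bulk, and of -7.21 over the 55 members at this level. Of these, 54 lay below the 10th percentile of the other genes (0.31), and the same held for 55 of 55, 55 of 56, 57 of 58 and 56 of 58 members at days 1 to 4. Without the division by length, 53 of 55 lay below it at day 0. H2bc18 was at 1280 CPM per kb in bulk and at 0.613 CPM in the single cells, but its exons overlap Gm42743 on the same strand and Gm20628 on the other. H1f1 had a similar bulk level (1347 CPM per kb), but 66.8 CPM in the single cells. With a single culture per day, no test between days was made of any value from the single cells.

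**Figure D4:**
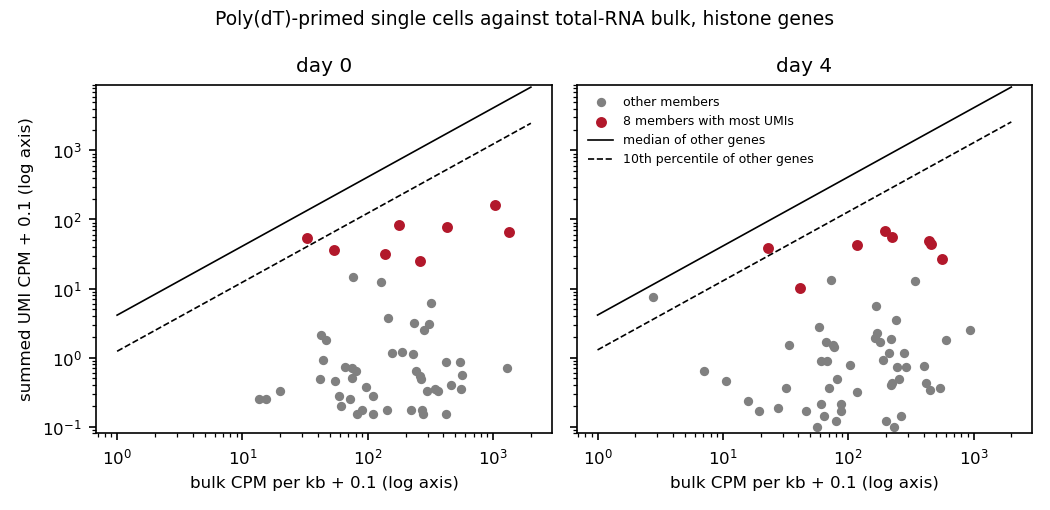
Summed UMI level (y axis, CPM plus 0.1, log axis) against the bulk level of TX1072 replicate 1 per kb of exon (x axis, log axis) at days 0 and 4, where each point is 1 member with at least 5 CPM in bulk and the 8 members with the most UMIs are red. The solid and dashed lines mark the median and the 10th percentile of the ratio of all other genes; 54 of 55 members at day 0 and 56 of 58 at day 4 lie below the dashed line.

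The members that were seen in the single cells were few. Hist1h1b (H1f5) held 17.3% of all member UMIs, Hist1h1e (H1f4) 14.8%, Hist1h4d (H4c4) 12.3%, Hist1h1a (H1f1) 9.30%, Hist1h2ac (H2ac6) 9.28%, Hist1h2bc (H2bc4) 8.60%, Hist1h1c (H1f2) 7.96% and Hist1h2ae (H2ac8) 4.19%. Together these 8 members held 83.7%. In contrast, 33 members had under 100 UMIs in all cells, and 2 of them, Hist1h2br and Hist2h2aa2, had 0. Of their windows of 50 bases, 88.7% and 100% recur in another member, so that this 0 sets no limit on their level. Intervals of the single-cell values cover counting error only.

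Members with the longest models past the stem-loop had the highest median ratio, which was not tested, and a longer model raises this ratio by construction, since it lowers the bulk value per kb. Among the 10 members whose model runs over 500 bases past the loop, the median log2 ratio at day 0 was -4.03, compared to -8.29 in the 16 members whose model ends within 100 bases. It was -8.39 in 6 members between these limits and -7.72 in 23 members without a loop in the model. The first 2 medians were -3.36 (11 members) and -7.81 (16 members) at day 4. Hist1h2ac, whose model is shown above to run 2010 bases past the loop, had the highest ratio at day 0 (0.73) and was the only member above the 10th percentile. It was followed by Hist1h2ae (-0.60), whose model runs 151 bases past the loop, and Hist1h1e (-1.12). In the models of Hist1h1b and Hist1h1a, at -2.69 and -4.33, no loop was found. Without the division by length Hist1h2ae had the highest ratio of the members at day 0 (-0.09). At day 4 Hist3h2a (H2aw), which passed the limit of 5 CPM in bulk on this day alone, had the highest ratio (1.48), ahead of Hist1h2ac (0.76). Its exons overlap those of Trim17, so reads of the 2 genes cannot be told apart without further information.

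The summed level of the members was 604 CPM at day 0 and 281, 267, 283 and 411 CPM at days 1 to 4 (exact Poisson intervals at 95% of 596 to 611, 276 to 286, 262 to 272, 277 to 289 and 405 to 417). The spread over the 10 capture columns of a day was larger than these intervals, from 492.6 to 883 CPM at day 0, from 231 to 388 at day 1 and from 318 to 729 at day 4. All columns of day 1 were below all columns of day 0. Without column 2, added after seeing the data, the sums were 582, 271, 273, 274 and 384 CPM. In bulk replicate 1, taken from the same cells, the share of the members fell from 0.933% to 0.519% at day 1 and was 0.757% at day 4.

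**Figure D5:**
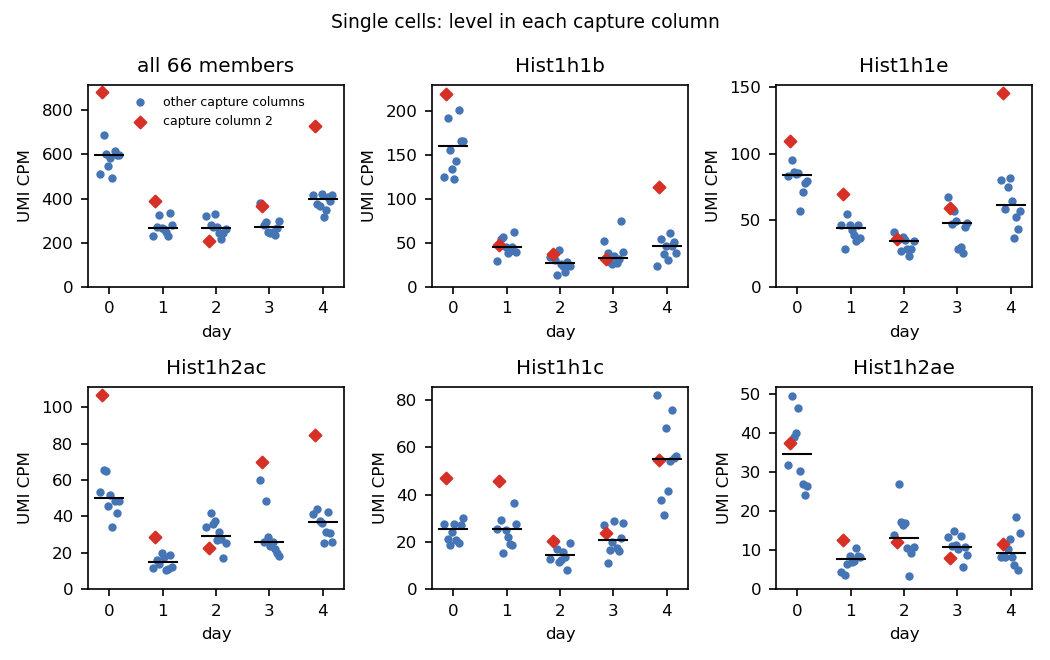
UMI level (y axis, CPM) of all 66 members and of 5 single members in each of the 10 capture columns of a day (x axis, day), with column 2 as a diamond and the median of the columns as a bar. Day 0 lies above day 1 in all columns for the sum, and column 2 is the highest at days 0, 1 and 4.

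Hist1h1b had the largest difference in level, from 162 CPM at day 0 to 46.0, 27.7, 38.5 and 48.8 CPM at days 1 to 4. A UMI of it was found in 87.7% of cells at day 0 (exact Clopper-Pearson interval at 95%, 83.3 to 91.3) and in 43.1% at day 2 (37.8 to 48.6). After each cell was thinned to 40000 UMIs the shares were 79.4% and 34.3%. Hist1h1a went from 66.8 to 27.1 CPM and Hist1h4d from 79.0 to 44.4 CPM between days 0 and 4. Hist1h2ae stood at 35.7 CPM at day 0 and at 7.65 to 14.1 CPM afterwards. No cell type known to lack these genes was identified here, so the share of cells that free RNA alone would give was not measured.

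For Hist1h1c the level over all cells was higher at day 4 than at day 0, whereas its bulk level was lower. Its UMI level was 25.3, 25.9, 15.1, 21.2 and 55.8 CPM at days 0 to 4, with the columns of day 4 between 31.4 and 81.9 CPM and those of day 0 between 18.5 and 46.9 CPM. A UMI was found in 54.9% of cells at day 0 (48.8 to 60.8) and in 71.0% at day 4 (65.2 to 76.3), or in 36.5% and 54.8% after thinning. In bulk replicate 1, before TMM scaling, it fell from 406 to 346 CPM. Hist1h2bc stood at 31.5 CPM in the single cells at day 0 and 42.9 CPM at day 4, with 158 and 137 CPM in bulk replicate 1. The columns of Hist1h2bc overlapped between both days (13.4 to 49.6 and 25.2 to 63.6 CPM), as did those of Hist1h1c. Hist1h1e was at 82.0 and 68.0 CPM, and at 343 and 380 CPM in bulk. The gene with the largest rise in bulk, Hist3h2ba (H2bu2), had 0, 4, 6, 5 and 12 UMIs at days 0 to 4, too few for a comparison.

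Cells differed widely in their histone UMIs. At day 0 the members took a median of 0.0625% of the UMIs of a cell (quartiles 0.0275% and 0.0917%, range 0 to 0.190%), and at day 1 a median of 0.0247% (quartiles 0.0153% and 0.0386%). In cells thinned to 40000 UMIs, the coefficient of variation of the member sum was 0.673, 0.779, 0.726, 0.772 and 0.786 at days 0 to 4. For the sum of the 26 DNA replication genes, which had 7102 CPM at day 0 and so a smaller counting error, it was 0.154, 0.175, 0.231, 0.282 and 0.381.

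The Fano factor (variance over mean of thinned counts) was set beside 200 genes of like mean. Hist1h1b had 7.82 at day 0, where the median of the 200 genes was 4.64 and 99.5% of them were below it. At day 1 its value of 4.33 was below the median of such genes (34.5% below). Hist1h1a lay above 82.5% to 96.5% of such genes at all days. By contrast, Hist1h2ac was among the least variable, with 2.59 at day 0 (3.5% below), 2.00, 2.32, 2.62 and 2.95 at days 1 to 4 (5.5% to 6.5% below). Hist1h2ae likewise had 2.13 at day 0 (2.5% below). Among the single members, high and low variation between cells thus occurred at similar means.

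Over the 277 cells of day 0, which share a culture, the Spearman correlation of the thinned counts had a median of 0.27 over the 28 pairs of the 8 members, with the highest value of 0.51 for Hist1h1b and Hist1h2ac. At days 1 to 4 the medians were 0.07, 0.11, 0.12 and 0.11, too weak in counts this sparse to be read. The member sum had a correlation of -0.43 with the G2 and mitosis genes at day 0, and of -0.24, -0.24, -0.07 and 0.14 at days 1 to 4. With the DNA replication genes it was 0.16, 0.13, 0.25, 0.22 and 0.15, and with the histone genes outside the 4 prefixes 0.10, 0.08, 0.21, 0.19 and 0.27. All of these are descriptions across the cells of a single culture per day.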

How the data were processed

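The authors aligned reads with STAR 2.5.2b to mm10 (GRCm38) with B6 and Cast SNPs masked, counted uniquely aligned bulk reads per gene with featureCounts and counted distinct UMIs per gene and capture site. They deposited these raw counts, in all and per allele. From the counts, edgeR 4.0.16 (R 4.3.3, quasi-likelihood test, TMM, filterByExpr, adjusted p of 0.05, two-sided) was fitted with day as a factor over 15 TX1072 libraries, and with line and day as 1 factor of 10 groups over 30 deletion-line libraries. DESeq2 1.42.0 served as an alternative. Bulk libraries held 16906263 to 57920260 counts and retained cells 43060 to 300322 UMIs. Retained cells are those the study lists. Rows of ERCC spike-ins were left out. In cells, thinning used 40000 UMIs.

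Named are the 3 most abundant members per class, the 3 largest increases and decreases at day 4 in TX1072 (mean count of at least 20), the 8 members with the most UMIs, and per list up to 4 called genes with the largest change plus its best known genes; others named were chosen after their values were seen. Members, lists and tests were chosen with earlier results of these data known.

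According to the study, each biological replicate began differentiation on a date of its own. The labels give only replicate numbers and do not say whether the deletion lines shared these dates. The numbers were taken to pair the libraries. The reported fits have no term for them, and a replicate block was run as an alternative. Deviations from the group mean correlated with a median of 0.232 between libraries of 1 number in TX1072 (18 of 30 over 0.1), of 0.356 within a deletion line (54 of 60) and of 0.195 between the deletion lines (47 of 75), compared to -0.127, -0.247 and -0.143 between other numbers. No libraries were duplicates. On simulated TX1072 counts (18272 genes), edgeR recovered 68.5% of genes changed by 1 and 88.8% of those changed by 2 on the log2 scale, with 3.73% of calls false. In the TXdXicB6 simulation (19066 genes) it recovered 51.5% and 78.8%, with 2.26% false. DESeq2 recovered 69.4% and 91% in the TX1072 simulation and 56.4% and 80.8% in that of TXdXicB6, with 12.2% and 9.87% of calls false. In both simulations few genes were changed, and counts were drawn independently for each gene and library. They hold no deviation shared by a replicate number, so these rates need not be those of the reported fits.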

Additional observations from a re-analysis of the deposited data

Results flagged for a closer look

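Dixon's test over the 10 capture columns of a day flagged the highest column in 10 of 45 groups examined (the member sum and 8 members at 5 days), while chance flags about 1 group in 20. Of the 10, 9 were column 2. There the member sum was 883 CPM at day 0 and 729 CPM at day 4, beside column medians of 596 and 398 CPM. At day 0, Hist1h2ac was at 106 CPM in this column, Hist1h4d at 129 CPM and Hist1h1c at 46.9 CPM, with medians of 50.1, 79.8 and 25.6 CPM. At day 1 Hist1h2ac was at 28.6 CPM (median 14.8). At day 4 Hist1h1b was at 114 CPM, Hist1h1e at 146 CPM and Hist1h2ac at 84.9 CPM, with medians of 46.7, 61.2 and 36.8 CPM. The other group was Hist1h1a at day 2 in column 1, with 49.9 CPM and a median of 20.7 CPM. What sets column 2 apart was not tested.

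The change from day 0 to day 4 differed between the deletion lines by the interaction test of edgeR in 9 of 64 members, while 15% of all genes were called in either direction and 7.14% with a lower value in TXdXicCast, so the total is close to the background. The log2 difference, TXdXicCast minus TXdXicB6, was -1.26 for H1f1, -1.10 for H1f5, -0.87 for H1f2, -1.35 for H1f3, -0.97 for H1f4, -1.67 for H1f6, -1.41 for H4c2, -1.14 for H4c8 and -1.10 for H4c12. Levels of both days enter these differences. Undifferentiated TXdXicCast libraries came from degraded RNA with milder fragmentation, so effects of line, degradation and fragmentation cannot be separated there. The part of each in these differences was not tested.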

How the results depend on the processing

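Counts of called members in TX1072 against day 0 stayed within 1.5 times under DESeq2, its size factors, TMM without the members, no filter and the replicate block, with 50, 49, 51, 41 and 11 calls under the block at days 1 to 4 and between days 4 and 1. In the deletion lines the block moved no count by over 1.5 times other than those named here. In TX1072, leaving out each replicate number gave ranges of 19 to 51, 27 to 53, 33 to 50 and 24 to 39 calls at days 1 to 4 and of 7 to 26 calls between days 4 and 1. In TXdXicB6 the ranges were 7 to 12, 7 to 17, 6 to 8, 6 to 10 and 5 to 5, and in TXdXicCast 22 to 26, 25 to 43, 27 to 43, 28 to 43 and 5 to 8, in the same order. The difference between lines ran from 0 to 12 for the change from day 0 to day 4 and from 1 to 16 at day 0, and was 0 in the other comparisons. With the replicate block, 21, 28, 18 and 16 members were called in TXdXicB6 at days 1 to 4, 44, 54 and 54 in TXdXicCast at days 1, 3 and 4, 13 for its day 4 against day 1, and 28 for the change between lines. A block shared by both lines, added after seeing the data, gave 17 calls in TXdXicB6 at day 1, 53 in TXdXicCast at day 4, 16 for the change between lines, and 15, 0, 0, 0 and 0 between the lines at days 0 to 4. Without a filter on low counts, 18 members were called in TX1072 at day 4 against day 1; 31, 36, 27 and 27 in TXdXicB6 and 14 for its day 4 against day 1; 48, 56 and 54 in TXdXicCast at days 1, 3 and 4 and 17 for its day 4 against day 1; 34 for the change between lines from day 0 to day 4; and 28, 10, 13, 13 and 10 between the lines at days 0 to 4. The cause was not tested, and no share of all genes under these settings is set beside these counts. Without TX1072 day 1 replicate 2, 34 were called for day 4 against day 1. Without TXdXicB6 day 0 replicate 1, 9 were called in TXdXicB6 at day 2 and 15 for the change between lines.

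Of 3876 recomputed values of single named genes, 147 were no longer called and 142 became called, and no called value changed sign. Another 84 that were called in neither fit did change sign. Thinning to 40000 UMIs moved 39 of 40 shares of cells with a UMI, all downwards, and taking all capture sites with at least 40000 UMIs moved 0 of 40. Low UMI counts limit all but 12 members of the UMI table.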

Other observations

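Reads assigned to an allele gave the B6 share of single members, summed over the 15 TX1072 libraries. It was 46.8% for H1f5 (libraries between 43.8% and 51.6%), 46.9% for H1f4 and 57.3% for H1f1. H2bc4 stood far from this, with 4.51% of 18240 allele-specific counts on B6 and a range over libraries of 2.11% to 8.20%. H2bc14 (Hist1h2bm) had 84.9% of 16255 counts on B6 (81.4% to 88.0%) and H4c1 (Hist1h4a) 23.7% of 15737 (19.5% to 26.9%). In the deletion lines, which were made from TX1072 but sequenced with longer reads and another kit, the B6 share was 11.8% (TXdXicB6) and 13.3% (TXdXicCast) for H2bc4, 67.9% and 71.6% for H2bc14, and 50.0% and 50.8% for H4c1. The share of H4c1 in TX1072 was thus not seen in the other table, and those of H2bc4 and H2bc14 were less far from even there. Such shares also depend on which SNPs separate a member from its near-identical copies in each strain, and the part of this was not tested. These 3 genes were named after their values were seen, and other members were also far from even. H2ac20 had 99.3% of 2791 counts on B6 in TX1072, and 71.8% and 73.1% on B6 in TXdXicB6 and TXdXicCast.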
